A study of Mus musculus with 10 samples.

Results

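The mixed-lineage kinase and JNK cascade was followed in the retina of the rd10 mouse through 10 genes, of the 11702 genes in the deposited table. The genes are the mixed-lineage kinases Map3k9, Map3k10, Map3k11, Map3k12 and Map3k13, the MAP2Ks Map2k4 and Map2k7, and the JNKs Mapk8, Mapk9 and Mapk10, and all 10 were present. Map3k10 was put forward by its higher level in halofantrine-treated than in DMSO-treated rd10 retinas, and the other 9 genes were listed with it by family and step of the cascade. The values of Map3k10 in the halofantrine comparison are therefore a description, and no test of them is given. Bulk RNA-seq libraries came from retinas of female mice in 3 groups, which were WT mice injected with DMSO (WT DMSO, W1 to W4), rd10 mice injected with DMSO (rd10 DMSO, D1 to D3) and rd10 mice injected with halofantrine (rd10 HAL, H1 to H3). The rd10 strain was B6.CXB1-Pde6brd10/J, in which a mutation of the rod phosphodiesterase gene Pde6b causes the loss of rods. All eyes received 1 μL into the vitreous at P10 and again at P24, either vehicle or 20 μM halofantrine, an antimalarial drug, and retinas were collected at P36. No WT group received halofantrine. According to the labels W1 to W4, D1, D2 and H1 form batch 1 and D3, H2 and H3 form batch 2, so that the WT group is in batch 1 only. The library titles carry 5 set names, of which W1 to W3 share 1, D1, D2 and H1 share 1 and H2 and H3 share 1, while W4 and D3 each have a name of their own, and what a set name stands for is not stated in the sources used here. No set name is shared by WT and rd10 libraries, so that set and genotype cannot be told apart in the comparisons against WT. The sources used here do not say whether retinas were pooled, and p-values measure the spread between libraries.

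In this cascade a MAP3K phosphorylates a MAP2K, which in turn phosphorylates a JNK, and JNK then phosphorylates transcription factors such as c-Jun. The mixed-lineage kinases MLK1 (Map3k9), MLK2 (Map3k10) and MLK3 (Map3k11) and the related DLK (Map3k12) and LZK (Map3k13) sit at the top. MKK4 (Map2k4) and MKK7 (Map2k7) are the MAP2Ks of JNK, and MKK4 can also act on p38. JNK1 (Mapk8) and JNK2 (Mapk9) are found in most tissues, while JNK3 (Mapk10) is mainly neuronal. In the retina DLK and LZK are known for relaying axon injury to the nucleus of ganglion cells. The cascade is switched by phosphorylation, which RNA levels do not measure.

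Counts on genes ranged from 15512212 in D3 to 38160436 in D2. Levels are given as CPM, counts relative to the total of the library, after scaling by TMM over the 10 libraries. Pde6b was at 2699 to 2855 CPM in W1 to W3 and at 93.1 CPM in W4, below the 125 to 387 CPM of the rd10 libraries. Since its label says WT, this library is written as the library labelled WT W4, or W4 for short, and calls against WT are given with and without it. The summed level of 9 rod markers was 69136 to 73121 CPM in W1 to W3, 2485 CPM in W4, 3448 to 10234 CPM in rd10 DMSO and 3242 to 8419 CPM in rd10 HAL, with none of the markers at 0. Within rd10 the rod sum was 3242 to 3593 CPM in batch 1 and 6971 to 10234 CPM in batch 2. Without W4, all 9 rod markers fell in rd10 DMSO, while 5 of 6 bipolar, 6 of 7 amacrine, 4 of 4 horizontal, 7 of 8 ganglion cell, 6 of 6 Muller glia, 6 of 6 gliosis and 5 of 5 microglia markers rose (edgeR, adjusted p under 0.05). For example the bipolar sum was 1226 to 1312 CPM in W1 to W3 and 2076 to 2433 CPM in rd10 DMSO, and the microglia sum was 23.1 to 30.7 and 107 to 144 CPM. Of 7 cone markers 2 rose and 2 fell, 3 of 3 blood markers fell, and no RPE or lens marker passed. Over all 11696 genes tested without W4, 32.3% rose and 29.9% fell. In these bulk libraries fewer cells of a type and less RNA per cell cannot be told apart.

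All 10 genes were measurable in every library, from 15.5 CPM for Map3k11 in D3 to 205 CPM for Map2k7 in W2. Compared per kilobase of transcript, the level in W1 to W3 was highest for Map2k7 at 62.1 ± 1.31 CPM per kb (SD, n = 3), followed by Mapk9 at 41.2 ± 1.93, Mapk10 at 33.6 ± 0.924, Map3k12 at 27.7 ± 0.605, Mapk8 at 25.3 ± 0.246 and Map2k4 at 20.5 ± 0.0668 CPM per kb. Below them came Map3k10 at 16.8 ± 1.10, Map3k13 at 9.81 ± 0.495, Map3k11 at 7.01 ± 0.970 and Map3k9 at 5.24 ± 0.446 CPM per kb. No neighbours in this order overlapped in W1 to W3, at the lengths used. DLK was thus the most abundant of the 5 MAP3Ks per kilobase and MLK1 the least. In rd10 DMSO retinas Mapk10 stood first at 51.6 ± 1.76 CPM per kb (SD, n = 3), above Map2k7 at 46.7 ± 2.77 CPM per kb. The place of Mapk10 rests on its length, here 3551 bases, averaged over reference transcripts with only 49.1% to 63.9% of its counts. With the length of its longest reference transcript, 7203 bases, Mapk10 was at 16.6 CPM per kb in W1 to W3 and at 25.4 CPM per kb in rd10 DMSO and in rd10 HAL. At the lengths used first, Map2k7 overlapped in rd10 DMSO with Mapk9, Map3k12 with Map2k4, Map3k10 with Map3k13, and Map3k9 with Map3k11. The order of the first 5 genes was the same in rd10 HAL retinas, where Mapk10 and Map2k7 overlapped.

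**Figure D1:**
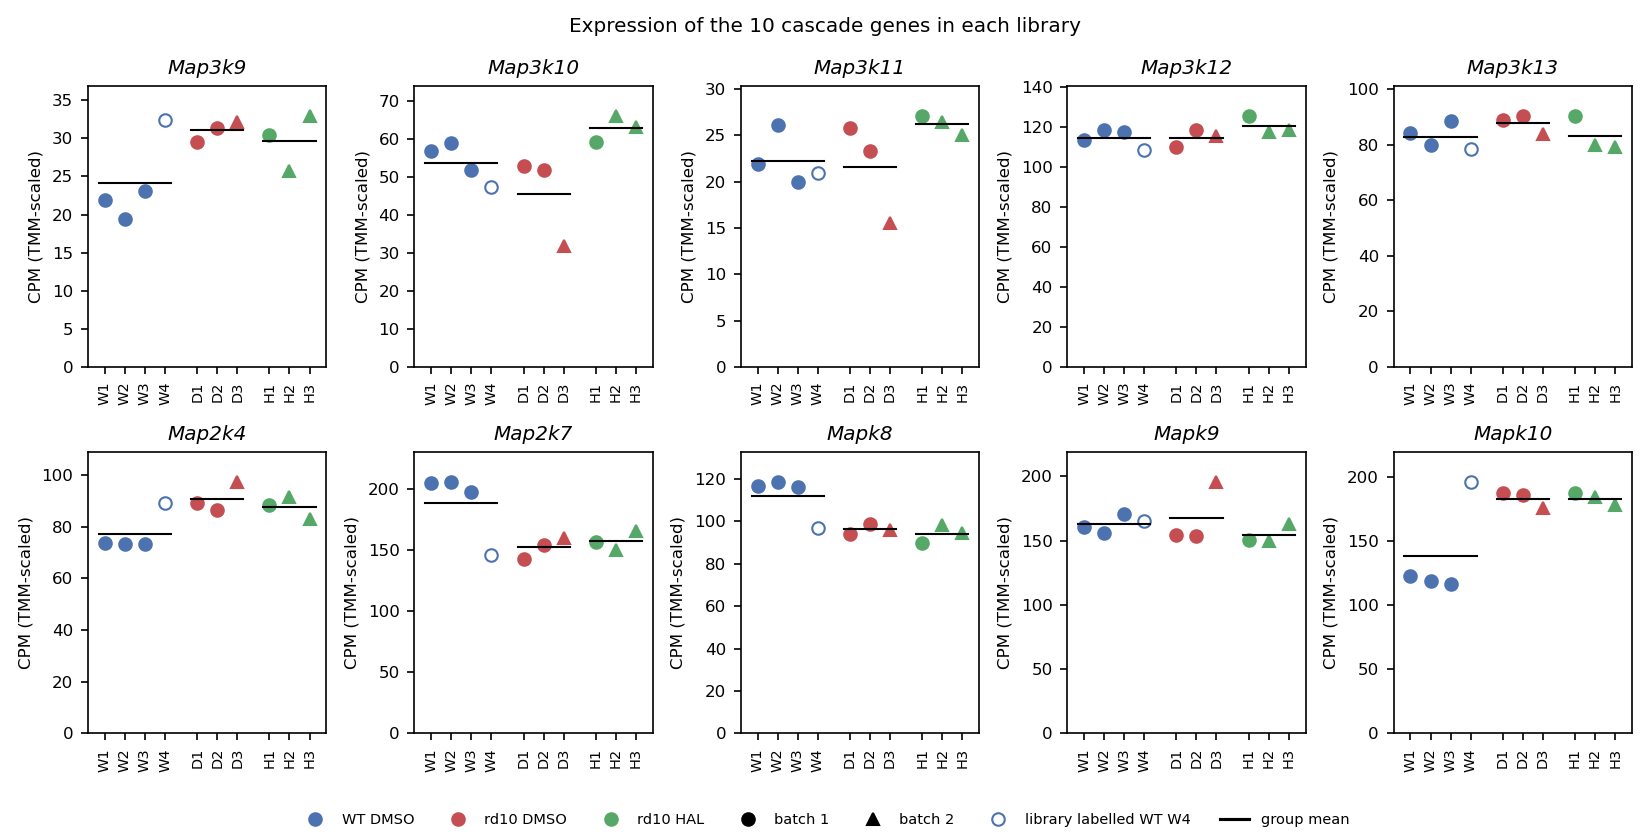
Level of each of the 10 genes in each library (CPM after TMM scaling, axes from 0), with WT DMSO in blue, rd10 DMSO in red and rd10 HAL in green, circles for batch 1, triangles for batch 2, an open circle for the library labelled WT W4 and a line at the group mean. W4 lies with the rd10 libraries for Mapk10 (196 CPM), Map2k7 (146 CPM) and Mapk8 (96.8 CPM), and D3 stands low for Map3k10 (31.7 CPM) and Map3k11 (15.5 CPM).

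The first comparison asked how the cascade differs between degenerating and WT retinas. With all 7 libraries, none of the 9 genes besides Map3k10 passed edgeR's quasi-likelihood test in rd10 DMSO against WT (smallest adjusted p = 0.188), and neither did any of the 11698 genes tested (0%), although 3108 had an unadjusted p under 0.05, and none of the 9 did. Without W4, 3 of the 9 genes rose and 2 fell, against 32.3% of 11696 genes that rose and 29.9% that fell. The median log2 fold change of all 10 members was 0.02, against -0.01 over all genes. Mapk10, Map3k9 and Map2k4 rose and Map2k7 and Mapk8 fell, so that genes of both directions were found among the MAP2Ks and among the JNKs. These calls rest on the removal of W4, but the direction of each of the 5 was the same in every alternative tried.

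Among the mixed-lineage kinases Map3k9 was the gene that differed. MLK1 RNA had 21.9, 19.5 and 23.0 CPM in W1 to W3, 32.4 CPM in W4 and 29.5, 31.4 and 32.2 CPM in D1 to D3. The rd10 DMSO libraries all lay above W1 to W3, and W4 lay above them all. The log2 fold change of Map3k9 was 0.36 ± 0.18 (SE, n = 3 and 4, edgeR adjusted p = 0.201) with W4 and 0.54 ± 0.086 (n = 3 and 3, adjusted p = 0.00116) without it. Map3k12, the DLK gene, stayed between 109 and 126 CPM in all 10 libraries. The log2 fold change was 0.00 with W4 and -0.01 without it, in the latter case with a 95% interval from -0.14 to 0.12. Map3k13, the LZK gene, ranged from 78.4 to 90.2 CPM, and its log2 fold change was 0.08 with W4 and 0.07 without it, where the interval went from -0.07 to 0.21. For both genes the intervals without W4 leave out changes of the size seen for Map3k9.

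Map3k10 had 56.7, 59.0 and 51.8 CPM in W1 to W3, 47.4 CPM in W4 and 52.9, 51.8 and 31.7 CPM in D1 to D3. D1 and D2 lay within or at the edge of the WT range, and D3 lay below all other libraries. The log2 fold change was -0.24 with W4, -0.28 without it, and -0.03 with W4 but without D3. Since the rd10 DMSO libraries also entered the comparison that put Map3k10 forward, these values carry no test. Map3k11, the MLK3 gene, had the same outlying library, with 22.0, 26.2 and 20.0 CPM in W1 to W3, 20.9 CPM in W4, and 25.8, 23.3 and 15.5 CPM in D1 to D3. For Map3k11 the log2 fold change without W4 was -0.06 ± 0.19 (adjusted p = 0.809), and its sign changed to 0.15 when D3 was left out and W4 kept.

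The 2 MAP2Ks went in opposite directions. Map2k4 had 73.6, 73.1 and 73.3 CPM in W1 to W3, 89.1 CPM in W4 and 89.0, 86.5 and 97.1 CPM in D1 to D3. W1 to W3 were nearly equal, and all rd10 libraries and W4 lay above them. The log2 fold change of Map2k4 was 0.32 ± 0.063 (SE, n = 3 and 3, edgeR adjusted p = 0.00326) without W4 and 0.23 ± 0.10 (adjusted p = 0.188) with it. Map2k7 had 205, 205 and 197 CPM in W1 to W3, 146 CPM in W4 and 142, 154 and 159.9 CPM in D1 to D3. All rd10 libraries and W4 lay below W1 to W3. Its log2 fold change was -0.40 ± 0.064 (adjusted p = 0.00114) without W4 and -0.31 ± 0.14 (adjusted p = 0.189) with it. Per kilobase, the ratio of the 2 MAP2Ks thus moved towards Map2k4, from 20.5 against 62.1 CPM per kb in W1 to W3 to 25.4 against 46.7 CPM per kb in rd10 DMSO.

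Most Map2k7 counts were on a pair of protein-coding transcripts whose coding parts differ in 1 exon of 48 bases, or 16 codons. Their other 11 coding exons are the same, but Map2k7-206 starts 21 bases earlier and ends 1 base earlier, so that reads at these ends also enter the division of counts between them. The exon is exon 2 of 12 of Map2k7-202 and is missing from Map2k7-206. It lies near the 5′ end of the gene, which encodes the part of MKK7 before the kinase domain, where MKK7 binds JNK. In GRCm38, an earlier build than the GRCm39 of the deposited counts, it lies on the plus strand at chr8:4240688-4240735. Its sequence, from the GENCODE M21 transcript 1 version before the one counted, is shown because the transcripts that hold it carry the decrease of Map2k7:
Map2k7-202 exon 2: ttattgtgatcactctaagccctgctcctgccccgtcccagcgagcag

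Map2k7-202, with this exon, had 122, 106 and 125 CPM in W1 to W3, 80.7 CPM in W4, 63.9, 63.8 and 74.0 CPM in D1 to D3 and 51.3, 57.2 and 75.4 CPM in H1 to H3. W4 was below W1 to W3, and no rd10 library reached W4. Map2k7-206, without the exon, had 41.9, 57.7 and 37.2 CPM in W1 to W3, 53.2 CPM in W4, 64.5, 73.3 and 50.3 CPM in D1 to D3 and 88.8, 80.8 and 76.0 CPM in H1 to H3. These levels were scaled by TMM over transcripts, apart from the genes, and do not compare directly with the gene levels above. Of the summed counts of the 2 transcripts, the share with the exon was 74.4%, 64.6% and 77.1% in W1 to W3, 60.3% in W4, 49.8%, 46.5% and 59.5% in D1 to D3 and 36.6%, 41.5% and 49.8% in H1 to H3. All 6 rd10 libraries lay below all 4 WT libraries, with W4 and D3 nearly touching. The share was 47.3% ± 7.88 (SD, n = 6) in rd10 and 69.1% ± 7.96 (SD, n = 4) in WT. In a two-sided exact permutation test the difference had p = 0.00952, the smallest p this design allows, or 0.0381 after Benjamini-Hochberg adjustment over 4 comparisons. Without W4, whose Pde6b level goes against its label, the share was 72.1% ± 6.56 (SD, n = 3) in WT and the exact permutation p was 0.0238, again the smallest possible, or 0.0952 after adjustment, and the adjusted call is lost. Without D3 the exact p was 0.0159, or 0.0635 after adjustment. Taken by themselves, rd10 DMSO and rd10 HAL each differed from the 4 WT libraries with an exact p = 0.0571, the smallest possible, or 0.0762 after adjustment, so that only the comparison of both rd10 groups pooled passed. The comparison was chosen after its values were seen, and how often transcript shares of other genes part rd10 from WT is not given here. In batch 1 alone, D1, D2 and H1 lay below W1 to W4 with an exact p = 0.0571, the smallest possible there. Between rd10 HAL, at 42.6% ± 6.65 (SD, n = 3), and rd10 DMSO, at 51.9% ± 6.78 (SD, n = 3), the libraries overlapped (exact permutation p = 0.30). Over all 10 reference transcripts of Map2k7, those holding the exon took 54.8% to 69.0% of the gene's counts in WT and 32.4% to 48.9% in rd10.

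**Figure D2:**
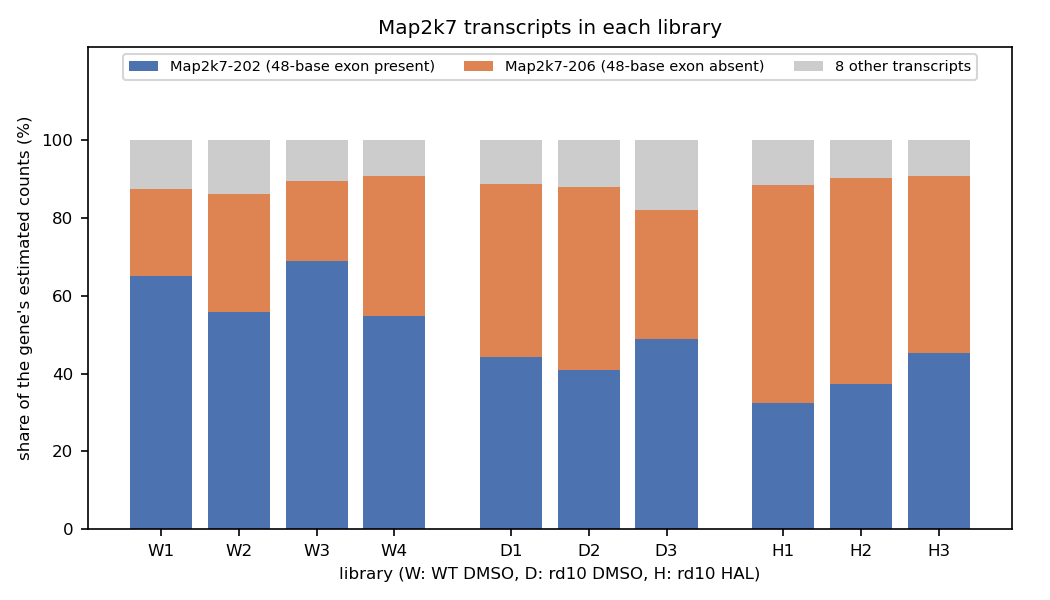
Share of the estimated counts of Map2k7 in each library (%, stacked bars from 0 to 100) on Map2k7-202, which holds the 48-base exon, on Map2k7-206, which lacks it, and on the 8 other transcripts. Map2k7-202 takes 54.8% to 69.0% in the WT libraries and 32.4% to 48.9% in the rd10 libraries.

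In the test across transcripts, 1 of 60528 transcripts (0.00165%) passed with W4 and 8948 of 57733 (15.5%) without it. With W4, 46 transcripts of the 10 genes were tested, of which 4 belong to Map3k10, for which no test is given. None of the others passed. Those with an unadjusted p under 0.05 were Map2k7-202, Mapk8-211 and Mapk10-205, beside 7131 of all 60528 transcripts. Without W4, 5 of 44 member transcripts rose and 1 fell, all of them of genes other than Map3k10, whose transcripts are among the 44. Map2k7-202 was the transcript that fell, with a log2 fold change of -0.82 ± 0.11 (SE, n = 3 and 3, edgeR adjusted p = 0.00626). Map2k7-206 had a log2 fold change of 0.44 ± 0.20 (adjusted p = 0.214). Map2k4-201, with 94.9% to 97.4% of the counts of its gene, rose by 0.41 on the log2 scale, and Map3k9-201, with 60.3% to 67.3%, rose by 0.62. The other 3 were Mapk10-202, Mapk10-205 and Mapk10-206, with log2 fold changes of 0.83, 1.59 and 1.01. The reference transcripts of Mapk10 hold only 49.1% to 63.9% of its counts, so that these cover part of the gene. Kallisto divides reads among transcripts by estimation, and the error of that step is not in the deposited values. Transcripts were scaled by TMM apart from genes, and the scales differ. Map3k13-202, with nearly all counts of its gene in W1 and D1, had 77.3 and 90.3 CPM there, against 84.3 and 88.9 CPM for the gene. The gene values without W4 were 0.32 for Map2k4 and 0.54 for Map3k9, so that transcript and gene fold changes do not compare directly.

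The JNK genes differed from each other in direction. Mapk10, the gene of JNK3, had 123, 119 and 116 CPM in W1 to W3, 196 CPM in W4 and 188, 186 and 176 CPM in D1 to D3. All rd10 libraries and W4 lay well above W1 to W3. Its log2 fold change was 0.63 ± 0.055 (SE, n = 3 and 3, edgeR adjusted p = 7.63e-05) without W4, the largest of the 10 genes, and 0.40 ± 0.19 (adjusted p = 0.197) with it. Mapk8, the gene of JNK1, had 117, 118 and 116 CPM in W1 to W3, 96.8 CPM in W4 and 93.8, 98.7 and 96.0 CPM in D1 to D3. Every rd10 library lay below W1 to W3. Mapk8 thus had a log2 fold change of -0.27 ± 0.051 (adjusted p = 0.00269) without W4 and -0.22 ± 0.093 (adjusted p = 0.188) with it. Mapk9, the gene of JNK2, had 161, 156 and 171 CPM in W1 to W3, 165 CPM in W4 and 154, 153 and 195 CPM in D1 to D3. D3 was here the highest library, and the groups overlapped. For Mapk9 the log2 fold change was 0.04 with W4 and 0.06 without it, where the 95% interval went from -0.19 to 0.30. All 6 rd10 libraries lay above W1 to W3 for 3 of the 10 genes (31.4% of all genes tested) and below them for 2 (32.3% of all genes tested), and these are the 5 genes named above. The marker sums of inner retinal neurons and glia rose and that of rods fell beside these genes, and their part in the differences was not tested.

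Mapk8 and Mapk9 each use 1 of 2 alternative coding exons of 72 bases, or 24 codons, which encode part of the kinase domain. These exons are shown because they define which JNK1 and JNK2 forms the counts stand for, and capitals mark the bases that differ within each gene. The coordinates are again those of GRCm38, with the Mapk8 exons on the minus strand at chr14:33390673-33390744 (Mapk8-205) and chr14:33390242-33390313 (Mapk8-203) and the Mapk9 exons on the plus strand at chr11:49874264-49874335 (Mapk9-201) and chr11:49873836-49873907 (Mapk9-203):
Mapk8-205 exon 7: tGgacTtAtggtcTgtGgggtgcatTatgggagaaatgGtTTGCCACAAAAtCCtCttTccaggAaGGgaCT
Mapk8-203 exon 6: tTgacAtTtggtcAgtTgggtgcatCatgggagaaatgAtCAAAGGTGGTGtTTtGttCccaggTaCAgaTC
Mapk9-201 exon 7: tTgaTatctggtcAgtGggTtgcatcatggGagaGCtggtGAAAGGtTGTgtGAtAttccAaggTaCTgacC
Mapk9-203 exon 6: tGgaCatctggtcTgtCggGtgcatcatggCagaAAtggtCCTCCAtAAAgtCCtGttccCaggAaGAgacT

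The 2 exons differ at 27 of 72 bases in Mapk8 and at 25 of 72 in Mapk9. Across the genes they are closer, since the exon of Mapk8-205 shares 81.9% of its bases with that of Mapk9-203, and the exon of Mapk8-203 shares 79.2% with that of Mapk9-201. Transcripts holding the exon of Mapk8-205 took 70.3% to 75.7% of the gene's counts in WT and 71.4% to 75.9% in rd10. Those holding the exon of Mapk8-203 took 14.0% to 19.1% in WT and 13.5% to 19.3% in rd10. In Mapk9 the exon of Mapk9-201 was on transcripts with 45.4% to 47.0% of the counts in WT and 49.0% to 49.5% in rd10 DMSO, which did not overlap, and 41.8% to 50.7% in rd10 HAL, which overlapped through H3. The exon of Mapk9-203 was on transcripts with 31.7% to 35.8% in WT and 31.8% to 40.0% in rd10. The shares of both Mapk8 exons and of the exon of Mapk9-203 overlapped between WT and either rd10 group, and no test of these shares was run. How often such shares part WT from rd10 DMSO over all genes is not given here. The level of Mapk8 was thus lower in rd10 than in W1 to W3, while the shares of its 2 exons lay in like ranges.

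Of the other genes with transcript detail, Map3k10-201 took 69.9% to 90.4% of the counts of Map3k10, with the lowest share in D3, and Map3k10-204 took 7.2% to 17.0%. Map3k12-207 took 72.5% to 84.4% of the counts of Map3k12, and Map3k13-202 at least 93.3% of those of Map3k13. In Map3k11 the coding transcript Map3k11-201 took 39.6% to 60.8% and Map3k11-204, annotated as a target of nonsense-mediated decay, took 35.8% to 53.8%. The share of Map3k11-204 was 35.8% to 47.6% in WT and 49.5% to 53.8% in rd10 DMSO, so that these groups did not overlap, while rd10 HAL, with up to 51.1%, overlapped with both. No test of this share was run, and how often transcript shares of all genes part these groups is not given here. The share of Map3k11-201 was 46.6% to 54.8% in W1 to W3, 45.8% in W4 and 39.6% to 46.5% in rd10 DMSO, so that WT and rd10 DMSO overlapped only through W4. Of the remaining transcripts with at least 10% in a group, Map3k9-202 took 17.7% to 26.5% and Map3k9-203, a retained intron, 11.2% to 18.6%. Mapk10-212 ranged from 3.8% in W1 to 22.0% in D3, and Mapk10-209 from 12.0% to 16.2%.

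The second comparison asked what halofantrine changed in the rd10 retina, and whether Map3k10 moved by itself. None of the 9 genes besides Map3k10 passed the test in rd10 HAL against rd10 DMSO with edgeR (smallest adjusted p = 0.883), and 0 of the 9 had an unadjusted p under 0.05. Of all 11692 genes tested, none passed (0%) and 557 had an unadjusted p under 0.05. Map3k10 was at 59.3, 66.0 and 63.2 CPM in H1 to H3, against 52.9, 51.8 and 31.7 CPM in D1 to D3. All HAL libraries lay above all DMSO libraries, as they did for 6.91% of all genes, and Map3k10 was the only member whose HAL libraries lay on 1 side of the DMSO libraries. Its means were 62.8 ± 3.38 CPM and 45.5 ± 11.9 CPM (SD, n = 3 each), a log2 fold change of 0.46. Without D3, the lowest library, the log2 fold change was 0.27.

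Map3k11 had the next largest value of the 10 genes. It was at 27.1, 26.5 and 25.1 CPM in H1 to H3, against 25.8, 23.3 and 15.5 CPM in D1 to D3. The groups overlapped through H3 and D1. Its log2 fold change was 0.27, with a 95% interval from -0.13 to 0.68, and it was 0.10 without D3, with an interval from -0.09 to 0.28. The other 8 genes had log2 fold changes between -0.12 (Mapk9) and 0.07 (Map3k12). Mapk10 was at 187, 184.5 and 178 CPM in H1 to H3, and its log2 fold change was -0.00, with an interval from -0.14 to 0.13. For Map2k7, at 157, 149.6 and 165 CPM in H1 to H3, the interval was -0.12 to 0.21, and for Mapk8, at 89.5, 98.4 and 94.3 CPM, it was -0.18 to 0.11. For Map2k4, at 88.3, 91.4 and 83.0 CPM, it was -0.22 to 0.11. For these 4 genes the intervals do not reach as far as a change back to the mean of W1 to W3, from which rd10 DMSO differed by 0.63, -0.40, -0.27 and 0.32 on the log2 scale (the error of these values is not in the intervals). Map3k9 was at 30.5, 25.7 and 32.9 CPM, Map3k12 at 126, 118 and 119 CPM, Map3k13 at 90.2, 79.7 and 79.0 CPM, and Mapk9 at 150.1, 149.7 and 163 CPM in H1 to H3. Each of these 4 genes overlapped with rd10 DMSO.

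**Figure D3:**
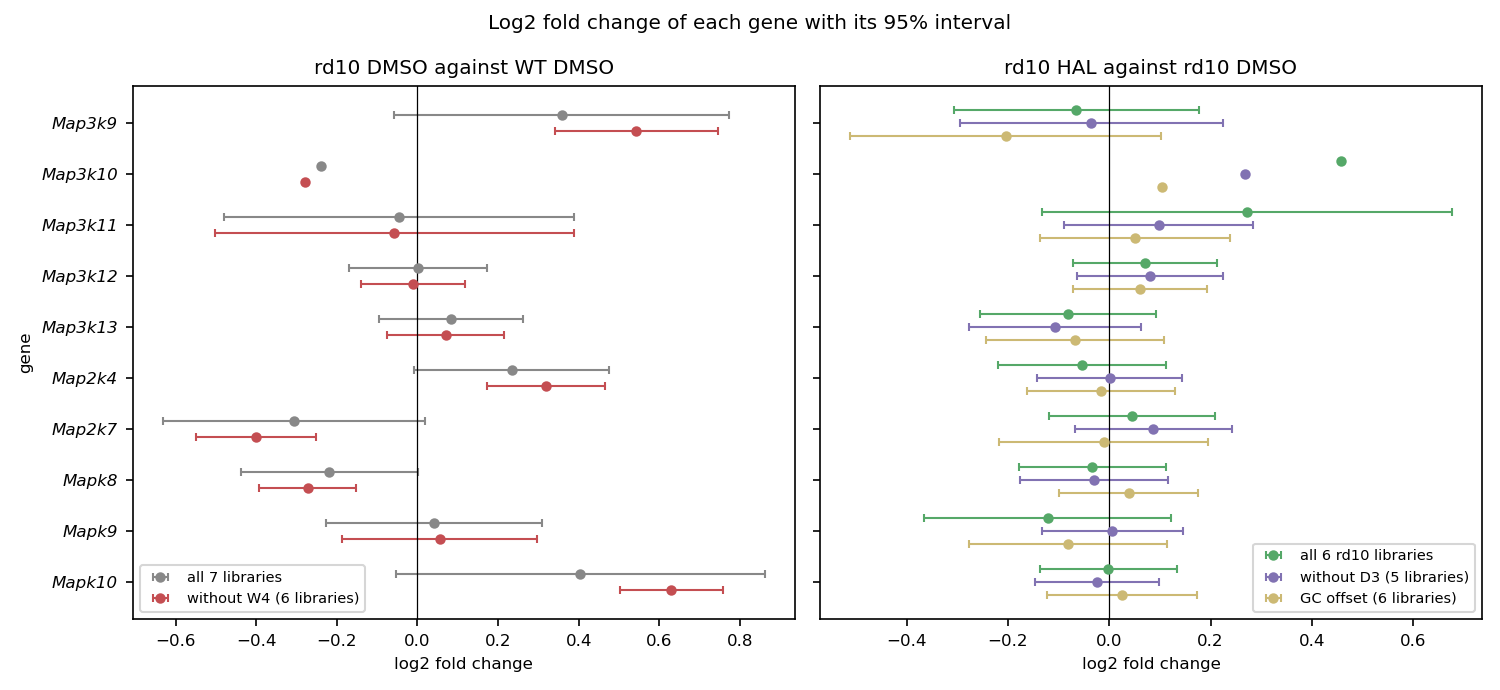
Log2 fold change of each gene in rd10 DMSO against WT DMSO (left, with and without the library labelled WT W4) and in rd10 HAL against rd10 DMSO (right, all libraries, without D3, and with an offset for GC content), with 95% intervals of edgeR's test. Map3k10 was chosen from the right-hand comparison and is drawn without intervals, there at 0.46, 0.27 and 0.10.

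The value of Map3k10 differed between the batches. In batch 1 the log2 difference between H1 and the mean of D1 and D2 was 0.18, and in batch 2 that between the mean of H2 and H3 and D3 was 1.02. Map3k11 behaved alike, with 0.14 and 0.73. For the other genes the 2 values lay between -0.32 and 0.14, and the median of all genes was -0.00 in both batches. D3 itself was lower than the mean of D1 and D2 by a log2 difference of -0.72 for Map3k10 and -0.66 for Map3k11, while for Mapk9 it was higher by 0.34. A fit with a batch term gave Map3k10 a log2 fold change of 0.58 and Map3k11 one of 0.42 (edgeR adjusted p = 0.268), and none of the 9 genes besides Map3k10 passed. With 2 DMSO and 1 HAL library in batch 1 and the reverse in batch 2, each within-batch value rests on a single library on 1 side.

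Both kinases are rich in G and C. The transcripts of Map3k10 held 64.5% G and C, above 99.7% of the genes tested, and those of Map3k11 held 61.1%, above 98.3%. Map3k9 came next with 58.3%, and the lowest member was Mapk8 with 40.3%. Over 20 bins of GC content, the median log2 fold change of all genes went from -0.09 in the lowest bin (574 genes) to 0.22 in the highest (574 genes, from 59.4% G and C). In the highest bin, the median of D3 lay at -0.42 from the mean of the 6 rd10 libraries in log2 CPM, those of the other libraries between 0.02 and 0.17. Of the 115 genes in the top 1% of GC content, to which Map3k10 belongs, the median log2 fold change was 0.34, and 29 genes including Map3k10 reached its value of 0.46. In 53.9% of them all HAL libraries lay above all DMSO libraries, against 6.91% of all genes. With an offset that removed each library's trend over GC content, the log2 fold change of Map3k10 was 0.10 and that of Map3k11 was 0.05. Map3k9, the third in GC content, had -0.07 without and -0.20 with the offset. Without D3, the median of the top 1% was 0.16, against 0.27 for Map3k10, and 33 of the 115 genes lay above it.

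**Figure D4:**
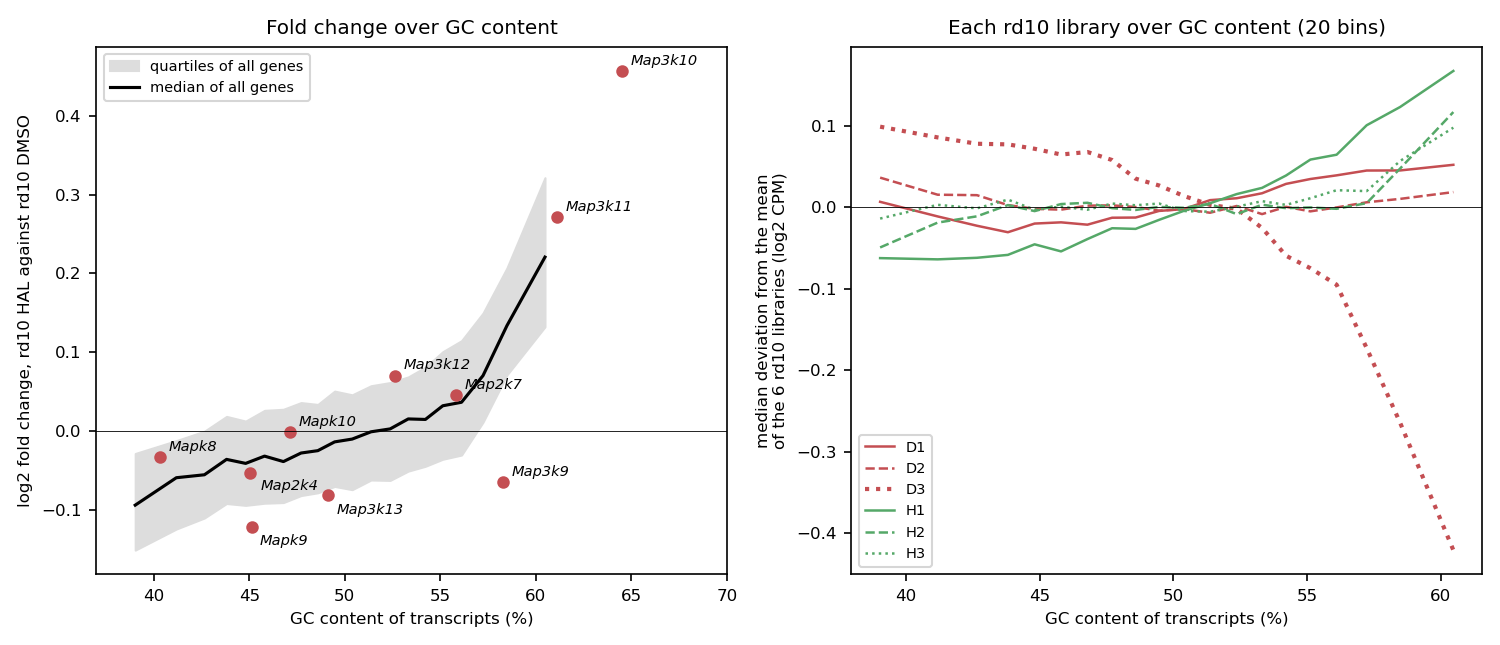
Left: log2 fold change in rd10 HAL against rd10 DMSO over the GC content of transcripts (%), with the median and quartiles of all genes in 20 bins and the 10 genes as red points. Right: median deviation of each rd10 library from the mean of the 6 rd10 libraries (log2 CPM) in the same bins, where D3 falls to -0.42 in the bin richest in G and C.

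Other genes followed Map3k10 across the libraries. The 5 genes whose log2 CPM was most like that of Map3k10 over the 10 libraries were Zfp628 (Pearson r = 0.99), Map1s (0.99), Abhd8 (0.98), Irf2bp1 (0.98) and Rbm42 (0.98). Their transcripts held 61.6% to 63.6% G and C, and D3 was the lowest library for each of them, as their choice by likeness to Map3k10 makes likely. For example Map1s, a microtubule-associated protein gene, was at 32.6, 32.2 and 14.5 CPM in D1 to D3 and at 38.2, 44.1 and 40.8 CPM in H1 to H3. The median GC content of the 50 genes most like Map3k10 was 60.4%, against 49.9% for all genes. Of the members, Map3k11 was the most like Map3k10 (r = 0.90, place 104 of 11697 genes) and Mapk9 the least (r = -0.86). The 10 points of each correlation share library depth and composition, and these values describe a likeness only.

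The last comparison set rd10 HAL against WT, and it shares the WT libraries with that of rd10 DMSO against WT. With W4, none of the 9 genes besides Map3k10 passed (edgeR, smallest adjusted p = 0.135), against 1 of 11699 genes tested (0.00855%), and Mapk8 was among the 4050 genes with an unadjusted p under 0.05. Without W4, 3 of these 9 genes rose and 2 fell, against 35.7% and 36.2% of all genes. The log2 fold change of Mapk10 was 0.62 ± 0.046 (SE, n = 3 and 3, edgeR adjusted p = 5.29e-06), that of Map3k9 0.47 ± 0.10 (adjusted p = 0.00313) and that of Map2k4 0.26 ± 0.050 (adjusted p = 0.00155). Map2k7 had -0.37 ± 0.052 (adjusted p = 0.000218) and Mapk8 -0.31 ± 0.049 (adjusted p = 0.000393). Map3k11 had 0.20 without W4 (adjusted p = 0.0877) and 0.23 with it, where rd10 DMSO had -0.06 and -0.05, and Mapk9 had -0.08 both times, where rd10 DMSO had 0.06 and 0.04. Map3k10 had a log2 fold change of 0.17 without W4 and 0.23 with it. The halofantrine libraries that put Map3k10 forward are the same here, so that this value too is a description, and with the GC offset and W4 kept it turned to -0.27.

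The genes around the cascade were counted over 8 lists with 70 genes, of which 55 were in the table. With W4 none of the 55 passed in rd10 DMSO against WT, and the values that follow are without W4 unless said otherwise. Without W4, 23 rose and 11 fell (edgeR, adjusted p under 0.05), beside the 32.3% and 29.9% of all genes. All 5 JNK scaffold genes that passed of 6 rose, with a list median log2 fold change of 0.37. They included Mapk8ip1 and Mapk8ip2, whose JIP proteins hold MLK, MKK7 and JNK together. Mapk8ip1 had 112, 112 and 104 CPM in W1 to W3 and 186, 184 and 126 CPM in D1 to D3 (log2 fold change 0.61, adjusted p = 0.00713). Mapk8ip2 went from 163 ± 4.28 to 227 ± 32.5 CPM (SD, n = 3 each, 0.49 on the log2 scale), and Sh3rf1, the POSH scaffold that binds MLKs, had 14.2 to 14.9 CPM in W1 to W3 and 20.0 to 27.5 CPM in rd10 DMSO (0.79).

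Among 9 other MAP3Ks, 1 rose and 5 fell, with a median of -0.22. Map3k5, the gene of the stress kinase ASK1, rose by 1.30 on the log2 scale, from 20.1 ± 0.907 to 49.0 ± 4.74 CPM (SD, n = 3 each, adjusted p = 3.63e-05 with edgeR). Taok3 had a log2 fold change of -1.56, from 175 ± 7.97 to 58.9 ± 1.79 CPM (edgeR adjusted p = 8.12e-06), and Map3k3 of -0.40. The values of Map3k5 and Taok3 were larger than that of any member. Of 6 MAP4Ks, which can act above MAP3Ks, 2 rose and 1 fell, with Map4k3 at -1.24, Tnik at 0.80 and Map4k4 at 0.31 on the log2 scale. W4 lay with the rd10 libraries in these genes as well, with 51.4 CPM of Map3k5, 56.6 CPM of Taok3 and 76.2 CPM of Map4k3.

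Of 5 JNK phosphatases, 2 rose (Dusp10 by 0.70 and Dusp16 by 0.53 on the log2 scale) and Dusp1 fell by 0.35, and of 8 regulators of MLK and DLK, 4 rose and 1 fell. Sarm1, the NAD-cleaving enzyme of axon degeneration, had a log2 fold change of -1.17, from 155 to 163 CPM in W1 to W3 to 67.5 to 71.7 CPM in rd10 DMSO (edgeR adjusted p = 1.32e-05). Nmnat2, an NAD-making enzyme that holds SARM1 in check, rose by 0.67, and Rac1, a GTPase that binds MLKs, by 0.65 on the log2 scale. Among 9 genes of JNK-regulated transcription 3 rose, Fosl2 by 0.88, Fos by 0.53 and Gap43 by 0.53, and 2 fell, with a list median of -0.01. Of the p38 arm, 3 of 5 genes rose, Mapk12 by 0.41, Map2k3 by 0.39 and Mapk14 by 0.21. Of the ERK arm, 3 of 7 rose and 1 fell, with Mapk3 at 0.41 and Araf at -0.29 on the log2 scale. Without W4 the median of the scaffold list was the highest of the 8 lists and that of the other MAP3Ks the lowest, beside -0.01 over all genes. With W4 the list medians were 0.24 for the scaffolds, 0.25 for the phosphatases, which then stood highest, 0.14 for the p38 arm, 0.12 for the MAP4Ks, 0.10 for the regulators, -0.00 for JNK-regulated transcription, -0.07 for the ERK arm and -0.16 for the other MAP3Ks. The list genes named above all had the same sign with W4 and a smaller log2 fold change, from -1.31 for Taok3 to 0.81 for Map3k5.

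**Figure D5:**
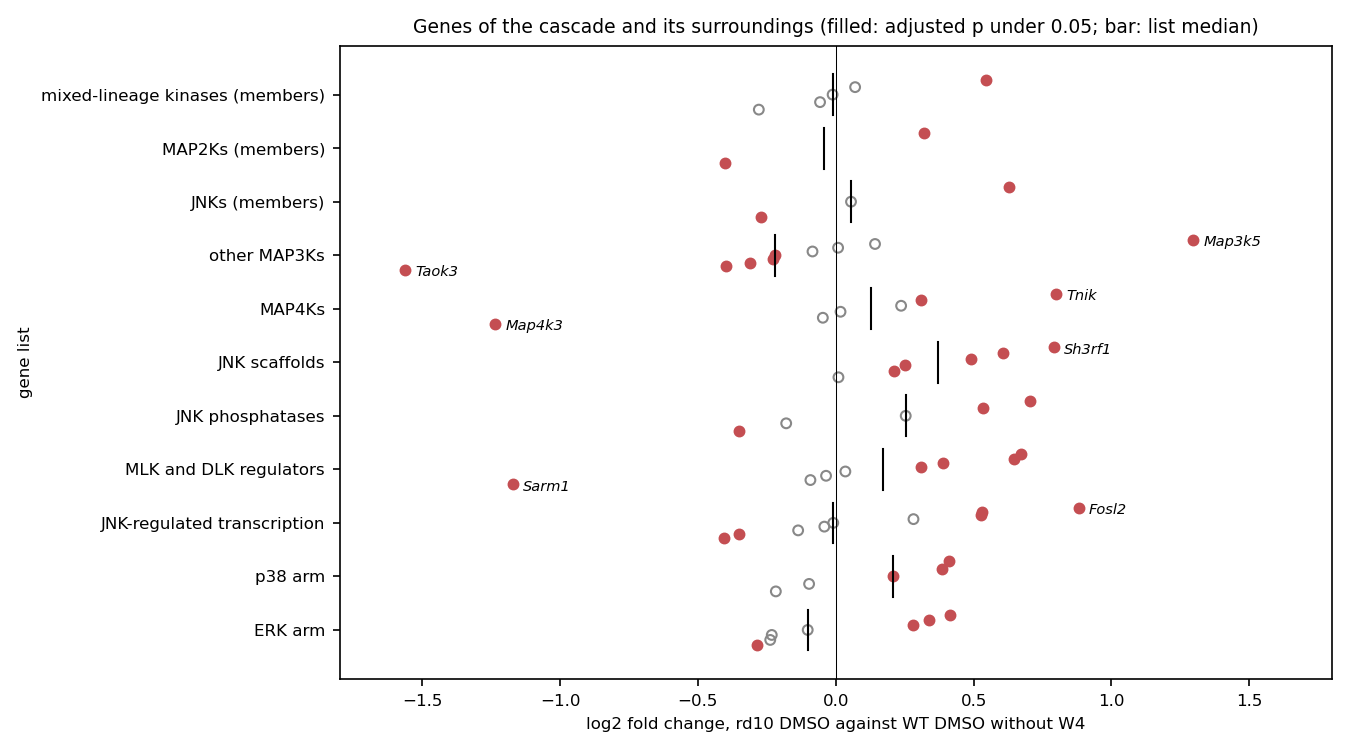
Log2 fold change in rd10 DMSO against WT DMSO without the library labelled WT W4, 1 point per gene in each list, filled where the adjusted p was under 0.05, with a bar at the list median. The largest values are those of Taok3 (-1.56) and Map3k5 (1.30), and the members lie between -0.40 (Map2k7) and 0.63 (Mapk10).

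Under halofantrine none of the 55 genes passed. All HAL libraries lay above all DMSO libraries for 4 of the 55 genes and below them for 5, beside 6.91% and 6.18% of all genes. Over the 9 genes of JNK-regulated transcription the median log2 fold change was -0.03, with 5 genes between -0.18 (Fos) and -0.03 (Gap43) and 4 between 0.15 (Ddit3) and 0.94 (Jund). The 3 Jun genes had the highest values, and these genes are named here after their values were seen, with no test. Jund, the JunD gene, was at 24.4, 22.4 and 4.49 CPM in D1 to D3 and at 28.6, 42.1 and 29.6 CPM in H1 to H3, with W1 to W4 between 17.0 and 20.1 CPM. All HAL libraries lay above all DMSO libraries, and D3 was the lowest. Its log2 fold change was 0.94 ± 0.50 (SE, n = 3 each), 0.52 without D3 and 0.59 with the GC offset, and its transcripts held 67.1% G and C. Jun, the gene of c-Jun, was at 28.5, 28.1 and 11.3 CPM in D1 to D3 and at 27.6, 30.6 and 30.5 CPM in H1 to H3, with a log2 fold change of 0.37 ± 0.30, which was 0.07 without D3 and 0.34 with the GC offset. D1 and D2 lay within or near the range of the HAL libraries, and D3 lay apart. Junb, the JunB gene, had 7.74, 8.48 and 3.38 CPM in D1 to D3 and from 8.07 to 13.7 CPM in H1 to H3, and its log2 fold change was 0.71 ± 0.34, 0.43 without D3 and 0.47 with the GC offset.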

How the data were processed

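Retinal RNA of female mice was sequenced from stranded poly(A) libraries. The authors estimated counts with Kallisto against the Ensembl mouse transcriptome (GRCm39) and imported them with tximport, and deposited estimated counts per gene (11702) and per transcript (275112). The authors' deposited CPM table is a signal scaled by 1 factor per library. Levels here differed from it by a median of 0.432%. A deposited table of the authors' halofantrine comparison, with fold changes and p-values, was not used.

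Estimated counts were rounded, filtered by filterByExpr, scaled by TMM and tested with edgeR 4.0.16 (quasi-likelihood F test) in R 4.3.3, with Benjamini-Hochberg adjustment over all genes or transcripts and only the 2 groups compared in the fit. A call is an adjusted p under 0.05. SE were taken from the F statistic. Symbols matched 11492 gene identifiers. GC content and length are means over GENCODE M21 (GRCm38) transcripts weighted by counts, for 98.1% of genes. Exon sequences were read from the same transcripts. The GC offset removed a lowess trend (span 0.3). Shares were compared by exact permutation in scipy.

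Members and gene lists were chosen with earlier results of these data known. Named beyond the members are, per list, up to 3 called genes with the largest fold change in rd10 DMSO against WT, taken without W4 since no gene passed with it, transcripts with at least 10% of a gene's counts in a group, the 5 genes most like Map3k10, and Pde6b. Jun, Junb, Jund, Ddit3 and the halofantrine values of Fos and Gap43 fall outside this rule and were chosen after their values were seen. The values of 1 gene that this rule names are not reported here. Alternatives were DESeq2 1.42.0, voom of limma 3.58.1, other scalings, no filter, all 10 libraries, summed transcript counts, batch 1 only, a batch term, the GC offset and leaving out each library. On simulated counts, 95% of genes with a 2-fold change and 56% with a 1.5-fold change were called between the rd10 groups (11692 genes), but 34% and 1% between rd10 DMSO and WT with W4 (11694 genes), and 0% of transcripts at either fold (56304 transcripts). False calls numbered 15, 3 and 0 in these simulations. The changed genes or transcripts lay above a floor of mean counts, and counts were drawn independently, without the trend of D3 over GC content. The shares called may therefore not hold for the real libraries.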

Additional observations from a re-analysis of the deposited data

Results flagged for a closer look

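In 4 of 11 sets of WT values the library labelled WT W4 stood apart from W1 to W3, judged by the gap to its nearest neighbour over the range of the group against Dixon's 95% critical value, which chance passes in about 1 of 20 groups. The ratio was 0.97 for Map2k4, 0.918 for Mapk10, 0.897 for Mapk8 and 0.871 for Map2k7. In each of these genes W4 lay at or beside the rd10 libraries, at 89.1 CPM for Map2k4, 196 CPM for Mapk10, 96.8 CPM for Mapk8 and 146 CPM for Map2k7. The same library had 93.1 CPM of Pde6b.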

How the results depend on the processing

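The calls against WT rest on the library labelled WT W4. Map3k10 is left out of the counts of member genes. Its transcripts are among the member transcripts tested, but none of the 6 that passed without W4 was of Map3k10. Leaving out 1 library at a time gave 0 to 3 members higher and 0 to 2 lower in rd10 DMSO against WT, 0 to 3 higher and 0 to 2 lower in rd10 HAL against WT, and 0 to 6 member transcripts, each highest count without W4. Without W4 34 genes of the 8 pathway lists passed. All other alternatives gave 0 members, and the halofantrine comparison gave 0 in all 15. The difference in the Map2k7 exon share was -24.8 percentage points in batch 1 only, where the design cannot reach p under 0.05, and -24.8 to -24.3 without W4 or D3, against -21.8, and its adjusted p (0.0381) became 0.0952 without W4, 0.0635 without D3 and 0.114 in batch 1.

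The sign of 5 members turned in some settings against WT. In rd10 DMSO against WT, Map3k11 was at 0.11 with library size only, 0.15 in batch 1 and -0.18 to 0.15 without single libraries, Map3k12 at -0.00037 with summed transcript counts, -0.046 with the GC offset and -0.012 to 0.041 without single libraries, and Mapk9 at -0.077 in batch 1 and -0.077 to 0.11 without single libraries. In rd10 HAL against WT, the GC offset gave -0.27 for Map3k10, -0.10 for Map3k11 and -0.018 for Map3k13, which was at -0.060 to 0.038 without single libraries, and library size only gave 0.067 for Mapk9. With library size only, the median log2 difference of all genes against WT was 0.14 for rd10 DMSO and 0.14 for rd10 HAL. With TMM it was -0.02 and -0.01. Signs also turned in rd10 HAL against rd10 DMSO. Over the alternatives, the batches taken singly included, Map3k9 ranged from -0.20 to 0.03, Map3k13 from -0.15 to 0.01 and Map2k4 from -0.16 to 0.01. Map2k7 ranged from -0.03 to 0.09, Mapk8 from -0.10 to 0.04, Mapk9 from -0.32 to 0.01 and Mapk10 from -0.02 to 0.04. Map3k10, Map3k11 and Map3k12 kept their sign. Causes other than the libraries left out were not tested. Summed transcript counts leave out Mapk10, of which the reference transcripts hold too small a share. No paired analysis was possible because numbers in the labels name libraries within a group and tie no mice of different groups together. The members with the lowest levels were Map3k9 and Map3k11, at 15.5 to 32.9 CPM.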
